A study of Mus musculus with 18 samples.

Results

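The regions described here are places in the mouse genome where a Foxa peak was called with an antibody against Foxa1 and with no other Foxa antibody. They were chosen by merging overlapping peaks (1 bp or more) of 8 Foxa lists and keeping the merged regions with a peak in the Foxa1_CA3 list, the Foxa3_NA1 list or both, and in none of the other 6 lists. They number 1344 of 24999 merged regions. Of these, 232 were in Foxa1_CA3 alone, 1067 in Foxa3_NA1 alone and 45 in both. Presence and absence of peaks chose them, so their counts, scores and widths are given as a description and carry no test.

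The assay was ChIP-seq, the sequencing of chromatin fragments pulled down with an antibody, on iHep (induced hepatocyte-like) cells, which are embryonic fibroblasts pushed toward a liver-cell state by transduced transcription factors. The fibroblasts came from C57BL/6 embryos of 13.5 days post coitum, and the cells of all 8 constructs also received Hnf4alpha. Foxa1_CA3 is Foxa1 carrying the C-terminal domain of Foxa3, and Foxa3_NA1 is Foxa3 carrying the N-terminal domain of Foxa1. Both therefore join the Foxa1 N-terminal domain to the Foxa3 C-terminal domain, both were precipitated with the Foxa1 antibody, and they differ in the central DNA-binding part. The lists that exclude a region are those of Foxa2_CA3 and Foxa3_NA2 (Foxa2 antibody) and of Foxa1_NA3, Foxa2_NA3, Foxa3_CA1 and Foxa3_CA2 (Foxa3 antibody), named in the same way. Each construct had 1 ChIP library and no replicate, and the N-terminal domain and the antibody changed together, so construct, antibody and library cannot be told apart. Whether the fibroblast-derived cells made Foxa1 of their own, which the same antibody could also bind, was not tested.

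Foxa proteins are forkhead transcription factors, known as pioneer factors because they can bind their sites in closed chromatin and open it for others. In liver development they act early, ahead of factors such as the nuclear receptor Hnf4alpha. The forkhead domain that contacts DNA is highly conserved between Foxa1, Foxa2 and Foxa3, whereas the flanking N-terminal and C-terminal domains differ more and carry the activation functions. The data give no reads, so depth is unknown, and each peak has only its position and the authors' score, a number of unstated kind that was above 5 in every list.

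The regions were a small share of all binding and of both lists. They made up 5.38% of the 24999 merged regions. Those of Foxa1_CA3 alone made up 0.928%, those of Foxa3_NA1 alone 4.27% and those of both 0.18%. Within the lists, 277 of the 4807 Foxa1_CA3 peaks (5.76%) and 1112 of the 7625 Foxa3_NA1 peaks (14.6%) lay in such regions. The same construction with the Foxa2 antibody gave 11661 regions (46.6% of all) in Foxa2_CA3, Foxa3_NA2 or both and in no other list, from lists of 13715 and 16543 peaks. A peak in a single list was common throughout the series: the share of a list found nowhere else ran from 0.941% of the 956 Foxa1_NA3 peaks to 35.3% of the Foxa3_NA2 peaks. Foxa1_CA3 (4.83%) and Foxa3_NA1 (14%) both lay within that range, as did Foxa3_CA2 (3.03%), Foxa2_NA3 (6.67%), Foxa3_CA1 (18.1%) and Foxa2_CA3 (21.3%).

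The regions were weak in both lists. In Foxa1_CA3 the median score was 13.3 in the 232 regions of that list alone and 16.1 in the 45 regions of both lists, against 19.7 in the other 4530 peaks of the list. In Foxa3_NA1 it was 14.6 in the 1067 regions of that list alone and 16.4 in the 45 regions of both lists, against 22.7 in the other 6513 peaks. The regions with a peak in both lists thus sat between the single-list regions and the remaining peaks, on each side. Scores above the median of their own list were found in 37 of the 232 regions of Foxa1_CA3 alone (15.9%), in 219 of the 1067 of Foxa3_NA1 alone (20.5%) and, on either side, in 14 of the 45 (31.1%). Low rank was shared by the single-list peaks of all 8 libraries. Peaks found in no other list had a median rank at 77.8% of the list length in Foxa1_CA3 and 73.2% in Foxa3_NA1, counted from the strongest, and between 70.7% and 83.3% in the other 6 lists.

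**Figure D1:**
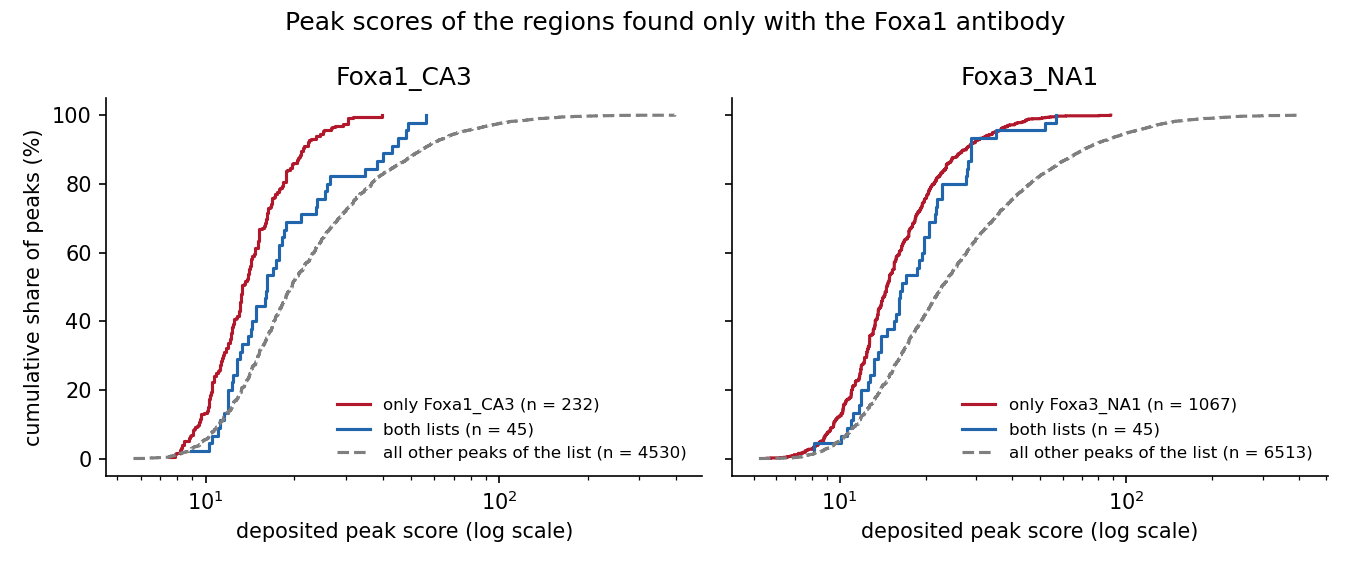
Cumulative share of peaks (vertical axis, percent) at or below each deposited score (horizontal axis, log scale) in Foxa1_CA3 (left) and Foxa3_NA1 (right), for regions of that list alone (red), regions of both lists and no other (blue) and all other peaks of the list (grey, dashed). The red curves rise first, with medians of 13.3 and 14.6, and the grey curves reach several times further to the right.

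The share of peaks found only with the Foxa1 antibody was lower at higher scores. Each list was divided by score into 10 bins of equal size. In bin 1, the weakest, 61 of 481 Foxa1_CA3 peaks lay in such regions (12.7%, 95% Wilson interval 10 to 16%), and in bin 10, the strongest, 1 of 481 (0.208%, 0.0367 to 1.17%). In Foxa3_NA1 they were 216 of 763 peaks in bin 1 (28.3%, 25.2 to 31.6%) and 2 of 763 in bin 10 (0.262%, 0.0719 to 0.951%). Nearly every peak of bin 10 in either list was thus also called in at least 1 list outside the Foxa1-antibody pair. The Wilson intervals given throughout cover counting error only and treat peaks as independent.

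**Figure D2:**
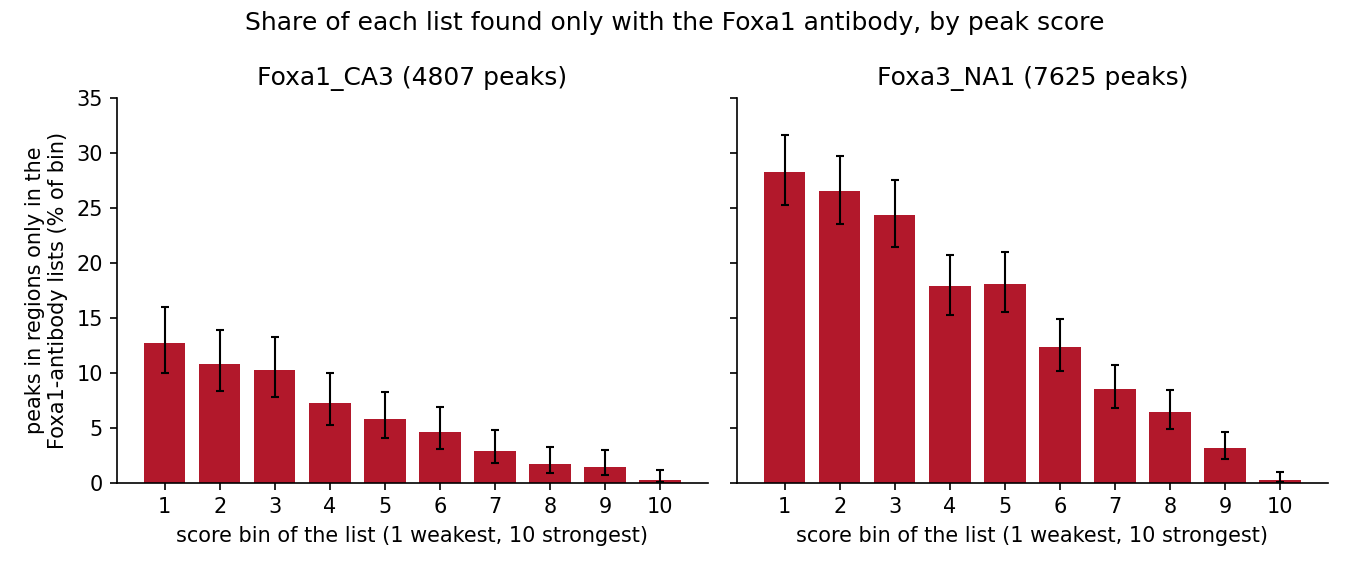
Percentage of peaks (vertical axis) that lie in regions found only with the Foxa1 antibody, in 10 equal bins of each list ordered from the weakest scores (1) to the strongest (10), with 95% Wilson intervals. The share is 12.7% in bin 1 and 0.208% in bin 10 of Foxa1_CA3 (left), and 28.3% and 0.262% in Foxa3_NA1 (right).

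How many regions each construct contributed changed with the number of peaks kept per list. With all peaks, Foxa3_NA1 had 1067 regions of its own and Foxa1_CA3 had 232, from lists of 7625 and 4807 peaks. When every list was limited to its 956 strongest peaks, the length of the shortest list, the order turned, with 163 regions of Foxa1_CA3 alone, 113 of Foxa3_NA1 alone and 15 of both. With the 3500 strongest peaks of each list, except Foxa1_NA3 with all its 956, the numbers were 585, 517 and 67. Most of the 163 and 113 held peaks of other lists once all peaks counted. Only 8 of the 163 and 4 of the 113 were then still found only with the Foxa1 antibody. In the full lists 143 of the 163 and 101 of the 113 carried a Foxa3_NA2 peak. All 15 of the regions of both lists carried one as well. The counts also changed when single libraries were left out. Without the Foxa3_NA2 list, the longest, 429 regions were in Foxa1_CA3 alone, 1475 in Foxa3_NA1 alone and 126 in both. Without the Foxa2_CA3 list they numbered 377, 1249 and 68.

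The 45 regions of both lists are the ones seen in both libraries. Their scores ran from 8.91 through a median of 16.1 to 56.4 in Foxa1_CA3 and from 8.12 through a median of 16.4 to 57.1 in Foxa3_NA1. The score was higher in Foxa1_CA3 in 18 of them and higher in Foxa3_NA1 in 27, though whether the lists share a scale is unknown. Across these 45 regions the scores were only loosely related (Spearman's rho 0.16; Pearson's r of log2 scores 0.29), against a rho of 0.51 across the 3106 other regions with 1 peak of each list. These are descriptions across regions of 1 library each, over a narrower range of scores in the 45. In 7 regions the peak ranked among the strongest 50% of both lists, in 24 of neither, and in 14 of 1 list. The paired peaks overlapped by a median of 79.7% of the wider one (lowest 49.5%), against 82.4% in the other 3106 regions. Their midpoints lay a median of 37 bp apart, 26 of 45 within 50 bp and the farthest 176 bp, against a median of 29.5 bp and 2232 of 3106 within 50 bp.

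The best placed of the 45 lay on chromosome 6 (109606434 to 109606978, mm9), with a score of 56.4 (rank 417) in Foxa1_CA3 and 57.1 (rank 959) in Foxa3_NA1. It was the one Foxa1-antibody region in bin 10 of Foxa1_CA3, and the nearest peak of the other 6 lists was 458 kb away. Next by mean rank came a region on chromosome 13 (63058848 to 63059347), with scores of 38.2 (rank 842) in Foxa1_CA3 and 52.1 (rank 1108) in Foxa3_NA1. Another list had a peak 4.18 kb from it. A region on chromosome 8 (39786230 to 39786736) followed, with scores of 48.1 in Foxa1_CA3 and 28.1 in Foxa3_NA1 and the nearest other-list peak 307 kb away. A region on chromosome 1 (195370045 to 195370533) had scores of 26.4 in Foxa1_CA3 and 35.1 in Foxa3_NA1 and stood 365 kb from any peak of the other 6 lists. The fifth, on chromosome 9 (87827971 to 87828540), was also the widest of the 45 and had scores of 42.9 in Foxa1_CA3 and 21.7 in Foxa3_NA1. The second widest, on chromosome 2 (128845756 to 128846301), joined 2 peaks displaced from each other, with scores of 11 in Foxa1_CA3 and 18.8 in Foxa3_NA1. Of these 6 regions, 1 had a peak of the other 6 lists within 10 kb.

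**Figure D3:**
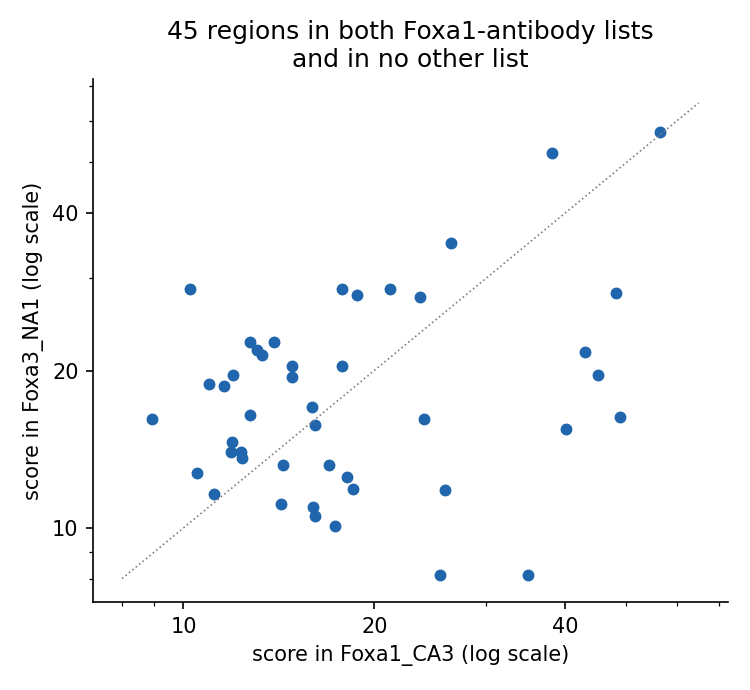
Deposited score in Foxa1_CA3 (horizontal axis, log scale) against that in Foxa3_NA1 (vertical axis, log scale) for the 45 regions in both lists and no other; each point is 1 region and the dotted line marks equal scores. The points scatter widely around the line, 27 above it and 18 below, and the region on chromosome 6 is at the upper right.

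The Foxa1-antibody lists have both terminal domains and the antibody in common. Among regions held by exactly 2 lists they were not each other's most frequent partner. Of the 429 regions that held Foxa1_CA3 and exactly 1 other list, the other list was Foxa3_NA2 in 195 (45.5%), Foxa2_CA3 in 144 (33.6%), Foxa3_NA1 in 45 (10.5%) and Foxa3_CA1 in 35 (8.16%). Of the 901 regions that held Foxa3_NA1 and exactly 1 other list, it was Foxa3_NA2 in 408 (45.3%), Foxa2_CA3 in 182 (20.2%), Foxa3_CA1 in 132 (14.7%), Foxa2_NA3 in 106 (11.8%) and Foxa1_CA3 in 45 (4.99%). The partners differ in length. Per 1000 peaks of the partner list, Foxa1_CA3 shared 5.9 such regions with Foxa3_NA1, 11.8 with Foxa3_NA2 and 10.5 with Foxa2_CA3. Foxa3_NA1 shared 24.7 with Foxa3_NA2, 20.3 with Foxa2_NA3, 17.5 with Foxa3_CA1, 13.3 with Foxa2_CA3, 10.5 with Foxa1_NA3 and 9.36 with Foxa1_CA3. With 956 peaks in each list the first partner of Foxa3_NA1 changed as well. It then shared 45 such regions with Foxa1_NA3, 26 with Foxa2_NA3, 15 with Foxa3_NA2, 15 with Foxa1_CA3 and 7 with Foxa2_CA3. Foxa1_CA3 shared 34 with Foxa3_NA2, 32 with Foxa2_CA3, 16 with Foxa3_CA1 and 15 with Foxa3_NA1. The order of partners thus depended on the length of the lists. Of the 3174 regions with peaks of both Foxa1-antibody lists, 1.42% (1.06 to 1.89%) were in no other list, which placed the pair at 14 of the 28 pairs of lists. With 956 peaks in each list the share was 2.96% and the place again 14. The share was 31.4% in the Foxa2-antibody pair, the highest of the 28 with all peaks. At equal length it was 11.7%, behind Foxa3_CA1 with Foxa3_CA2 at 12.8%. Counted with or without further lists, the Foxa1-antibody lists shared 507 regions at equal length. Foxa1_CA3 shared more only with Foxa2_CA3 (557), and Foxa3_NA1 only with Foxa2_NA3 (529).

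**Figure D4:**
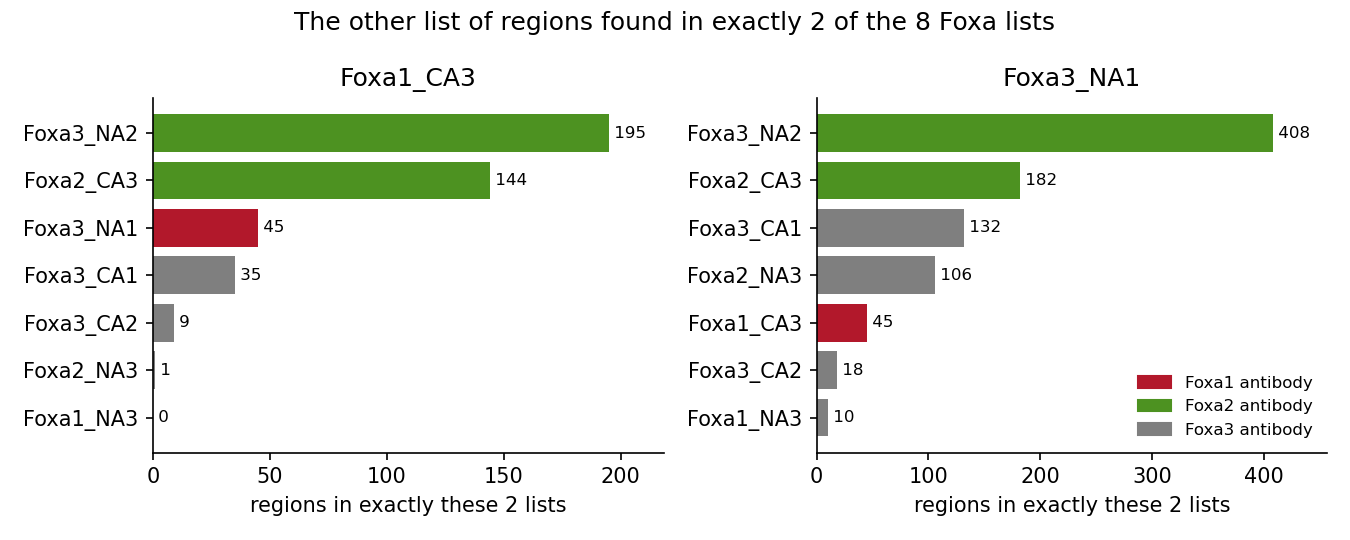
Number of regions found in exactly 2 of the 8 lists (horizontal axis), by the second list (rows), for Foxa1_CA3 (left) and Foxa3_NA1 (right), coloured by the antibody of the second list. All peaks are used. Foxa3_NA2 and Foxa2_CA3 come first for both constructs, and the 2 Foxa1-antibody lists share 45 regions.

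The strongest regions of Foxa3_NA1 alone stood higher in their list than those of Foxa1_CA3 alone. They are the first 5 of 1067 regions against the first 5 of 232, and a larger group can reach higher ranks by number alone. The median rank was at 73.2% of the list length in Foxa3_NA1 alone and at 77.8% in Foxa1_CA3 alone. The first 5 of Foxa3_NA1 lay on chromosome 5 (115430841 to 115431361; score 88.3, rank 450), chromosome 14 (103236774 to 103237299; score 80.5, rank 519), chromosome 18 (66234943 to 66235507; score 61.5, rank 844), chromosome 14 (79596743 to 79597215; score 57.3, rank 948) and chromosome 8 (89867884 to 89868341; score 56.9, rank 968). The first 2 were the ones in bin 10 of that list. The region on chromosome 5 had a peak of another list 9.02 kb away, and the nearest to the other 4 stood between 28.8 and 261 kb off. The first 5 of Foxa1_CA3 lay on chromosome 4 (30189725 to 30190193; score 39.9, rank 788), chromosome 2 (33079389 to 33079798; score 31.8, rank 1170), chromosome 5 (55232463 to 55232981; score 30.6, rank 1224), chromosome 12 (120625125 to 120625641; score 30.6, rank 1229) and chromosome 19 (21535468 to 21535951; score 30.6, rank 1232). Their nearest peaks of the other 6 lists lay between 4.01 kb (chromosome 2) and 395 kb (chromosome 4) away. The lowest scores were 7.52 in Foxa1_CA3 alone (rank 4783) and 5.58 in Foxa3_NA1 alone (rank 7622), so the regions reached almost to the end of both lists but not to the top.

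Over all scores the regions were narrower than the other peaks. Median peak width was 361 bp in regions of Foxa1_CA3 alone, against 417 bp in the other peaks of that list, and 358 bp in regions of Foxa3_NA1 alone, against 426 bp in the other peaks of that list. In the 45 regions of both lists it was 387 bp in Foxa1_CA3 and 362 bp in Foxa3_NA1. Score moved with width, and peaks were also compared within 3 score bands of equal size per list (low, middle, high). In the low band of Foxa1_CA3 the median widths were 340 bp for the regions and 345 bp for the other peaks, and in the low band of Foxa3_NA1 330 and 339 bp. In bin 1 of Foxa1_CA3 the regions were the wider ones, 356 bp against 339 bp. In the middle band the regions were 388 against 403 bp in Foxa1_CA3, with median scores of 18.4 against 19.0. In the middle band of Foxa3_NA1 they were 384 against 405 bp, with median scores of 19.9 against 21.1. In the high band they were 455 against 505 bp in Foxa1_CA3, with median scores of 31.2 against 39.5. In the high band of Foxa3_NA1 they were 468 against 514 bp, with median scores of 36.6 against 47.9. Peaks at the smallest width of their list, 308 bp in Foxa1_CA3 and 295 bp in Foxa3_NA1, made up 10.8% of the Foxa1-antibody regions against 4.11% of the other peaks in Foxa1_CA3, and 8.63% against 2.46% in Foxa3_NA1. Peaks wider than 1000 bp were rare among the other peaks, 5 of 4530 in Foxa1_CA3 and 20 of 6513 in Foxa3_NA1. None of the 277 and 1112 peaks in the Foxa1-antibody regions was as wide, which tells little at such low shares. The widest were a Foxa3_NA1 peak of 984 bp on chromosome 16 (80220341 to 80221324; score 20.4), 1051 kb from any peak of the other 6 lists, and one of 838 bp on chromosome 12 (116173449 to 116174286; score 14.1). In Foxa1_CA3 alone the widest were 625 bp on chromosome 3 (50896349 to 50896973; score 14.1) and 592 bp on chromosome 10 (58378391 to 58378982; score 20.4).

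The regions stood farther from other Foxa regions than the remaining peaks of the same lists did. The rule removed regions that overlapped a peak of the other 6 lists, so nearness to those lists is not fully independent of it, and the gaps are given as a description. Another region of any of the 8 lists lay within 10 kb of 33.6% of them (452 of 1344; 31.2 to 36.2%), against 51.6% of the 7880 other regions of the Foxa1-antibody lists (50.5 to 52.7%). The median gap was 22 kb, against 9.35 kb. The share was 23.3% for regions of Foxa1_CA3 alone (18.3 to 29.1%), 36.5% for those of Foxa3_NA1 alone (33.6 to 39.4%) and 20% for those of both (10.9 to 33.8%), whose median gap was 42.9 kb. Within 100 kb, 62.2% of the regions of both had a neighbour (47.6 to 74.9%), against 93.4% of the other regions. Regions and not libraries were counted here, so no p-value is given.

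The difference had the same direction within each score band. In the low band of Foxa1_CA3, 23.4% of the regions had a neighbour within 10 kb, against 53.1% of the other peaks, and in the high band 15% of 20 regions against 54.1%. In Foxa3_NA1 the shares were 38% against 50.7% in the low band and 34.1% against 53.4% in the high band. On the other measure used, a neighbour held by another list than the region's own, the single-list regions of the 8 libraries varied. Such a neighbour lay within 10 kb of 20.3% of the regions of Foxa1_CA3 alone (15.6 to 25.9%) and of 32.1% of those of Foxa3_NA1 alone (29.3 to 34.9%). The same share was 34.2% for Foxa3_NA2 alone (33.0 to 35.4%), 36.9% for Foxa3_CA1 alone (34.3 to 39.5%), 38.4% for Foxa2_NA3 alone (33.4 to 43.6%) and 41.4% for Foxa2_CA3 alone (39.7 to 43.2%). It was 33.9% of 109 regions for Foxa3_CA2 alone (25.7 to 43.2%) and 22.2% of 9 for Foxa1_NA3 alone. With regions of any list counted as neighbours, the regions of Foxa2_CA3 alone (48.6%) and of Foxa3_NA2 alone (48.5%) were level with all merged regions (48.8%). The share was lower for Foxa2_NA3 alone (41.3%), Foxa3_CA1 alone (40.7%), Foxa3_CA2 alone (33.9%) and Foxa1_NA3 alone (22.2% of 9). It was 23.3% for Foxa1_CA3 alone and 36.5% for Foxa3_NA1 alone, so a low share was not particular to the Foxa1-antibody regions.

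**Figure D5:**
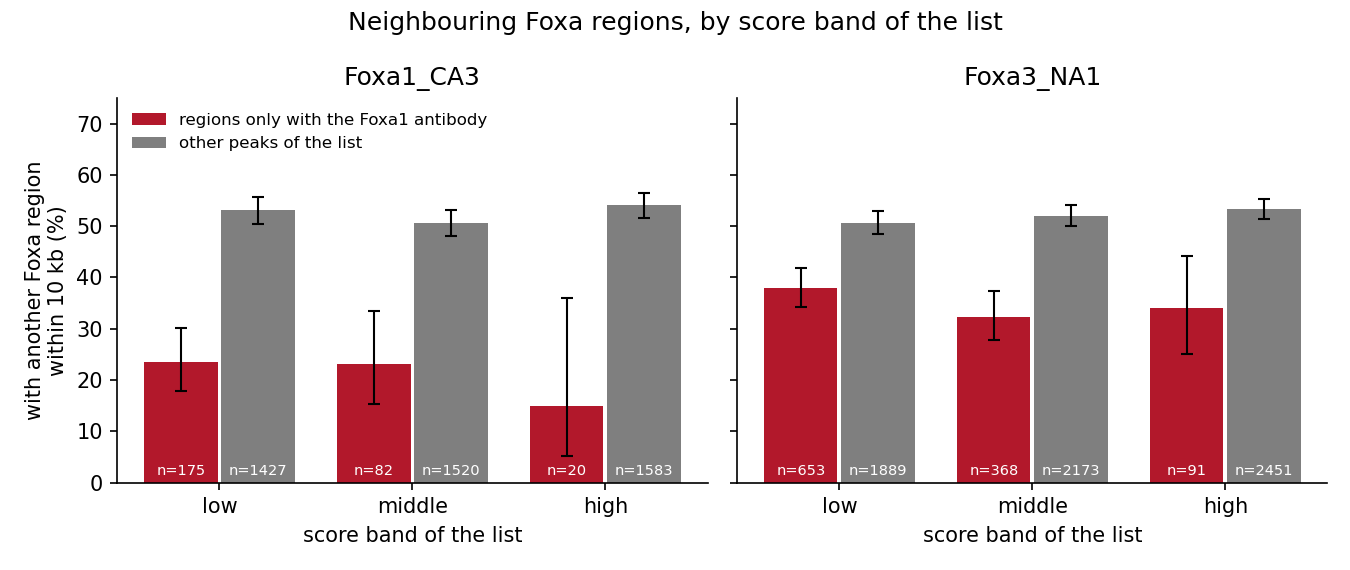
Percentage of peaks with another Foxa region of any of the 8 lists within 10 kb (vertical axis), by score band of each list (low to high), for regions found only with the Foxa1 antibody (red) and the other peaks of the list (grey), with 95% Wilson intervals and numbers of peaks in the bars. In every band the red bar is lower, with 15% against 54.1% in the high band of Foxa1_CA3 and 38% against 50.7% in the low band of Foxa3_NA1.

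Where a neighbour was close, it often belonged to the same lists. Of the 452 regions with a neighbour within 10 kb, that neighbour held a Foxa1_CA3 or Foxa3_NA1 peak in 60.6% and was itself found only with the Foxa1 antibody in 15%. For the 4063 other regions of these lists with such a neighbour, the shares were 41.5% and 4.82%. Among all merged regions 36.9% held a peak of either list and 5.38% were found only with the Foxa1 antibody. The neighbour was present in a median of 2 lists for both sets, and in all 8 lists for 14 of the 452 and 129 of the 4063. The share with a neighbour of the same lists was not computed for single-list regions of the other lists. By a related measure, 48.5% of regions of Foxa3_NA2 alone had any region within 10 kb, and 34.2% had one of another list. For Foxa3_NA1 alone these shares were 36.5% and 32.1%, and for Foxa3_CA2 alone both were 33.9%.

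Most of the regions were nonetheless single. With regions at most 100 kb apart joined, 1023 of the 1344 (76.1%) stood alone and 321 (23.9%) fell into 146 clusters, of which 123 were pairs. Of the other regions of these lists, 18.4% had a Foxa1-antibody region within 100 kb. The clustered share changed with the lists and peaks used: it was 9.03% without Foxa3_NA1, 31.4% without Foxa3_NA2, 10.3% with the score filter on the Foxa1-antibody lists (above 19.2, the pooled median) and 4.12% with 956 peaks per list. By construct, 116 clusters held only regions of Foxa3_NA1 alone, which are 1067 of the 1344 regions, 9 held only regions of Foxa1_CA3 alone, and 21 were mixed. The largest cluster held 5 regions, all of Foxa1_CA3 alone, over 313 kb of chromosome 1 (73159009 to 73472009), with scores from 11.4 to 25; 4 regions of other lists lay among them. Next came 4 regions of Foxa3_NA1 alone within 56.3 kb of chromosome 17 (85089582 to 85145886; scores 8.18 to 24.6) and 4 within 57.1 kb of chromosome 2 (106573106 to 106630242; scores 16.1 to 28.7). No region of another list fell inside either span, but the nearest lay 363 bp outside the one on chromosome 17 and 436 kb from the one on chromosome 2. The other two clusters of 4, which cover longer spans, lay on chromosome 4 (70143010 to 70214834) and chromosome 10 (98729352 to 98847779) and held 6 and 1 regions of other lists.

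The regions were spread over all 20 chromosomes in the lists, from 28 on X to 117 on chromosome 1. Their share of all merged regions ran from 3.96% on chromosome 15 to 6.72% on chromosome 5, and the Wilson interval held the overall 5.38% on 19 of the 20 chromosomes, the exception being chromosome 5 (5.54 to 8.14%). Regions of Foxa3_NA1 alone outnumbered those of Foxa1_CA3 alone on every chromosome. Over all merged regions the shares were 0.928% for Foxa1_CA3 alone and 4.27% for Foxa3_NA1 alone. Chromosome 3 held 23 (1.44%) of Foxa1_CA3 alone and 49 (3.07%) of Foxa3_NA1 alone. On chromosome 11 they were 6 (0.408%) and 80 (5.45%), and on chromosome 19 they were 2 (0.265%) and 36 (4.76%). These chromosomes lie at the ends of the range over 20, some counts are small, and the spread was not tested. The 45 regions of both lists were most numerous on chromosome 6 (7 of 1673 merged regions, 0.418%) and chromosome 2 (6 of 1816, 0.33%). Over all merged regions the share was 0.18%. These are small counts, and 6 chromosomes held none.

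None of the 1344 regions met a peak of the library titled 4a3_DA1, which by its remaining labels received Foxa1 and Hnf4alpha and was pulled down with the Hnf4alpha antibody. A count of 0 of 1344 allows a share of up to 0.223% if 3 counts are taken as the limit, and the upper Wilson bound is 0.285%. Of the 7880 other regions of the Foxa1-antibody lists, 32 met a peak there (0.406%, 0.288 to 0.573%), and of all merged regions 217 did (0.868%), so hits were rare on both sides. Regions of other single lists varied: 0 of 2922 met a peak there for Foxa2_CA3 alone, 0.274% for Foxa3_NA2 alone and 3.74% for Foxa3_CA1 alone. Within 100 kb of a peak of that library lay 54 of the Foxa1-antibody regions (4.02%), against 7.07% of the 7880 other regions. That list holds 698 peaks, and its title and other labels disagree about the construct.

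Few regions missed a called peak of the other 6 lists by a short distance. Signal just below the calling cutoff in another list cannot be seen in peak lists. The nearest to another list was a Foxa3_NA1 peak on chromosome 4 (70214448 to 70214834; score 21.1), 9 bp from a Foxa3_NA2 peak (score 11.6), followed by one on the same chromosome (70194676 to 70195064; score 12.5), 61 bp from a Foxa3_NA2 peak (score 19.1). Just outside stood a Foxa3_NA1 peak on chromosome 1 (88337729 to 88338023; score 10.2) that overlapped a Foxa3_NA2 peak (score 8.80) by 20 bp, and one on chromosome 11 (86665789 to 86666264; score 6.27) that overlapped one (score 50.7) by 57 bp. In all, 5 regions lay under 200 bp from a peak of the other 6 lists and 67 (4.99%) within 1 kb.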

How the data were processed

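Each ChIP library came with 1 peak list without a header, giving chromosome, start, end, name and a score. Per the submitters' processing notes, BWA 0.6.2, MACS2 2.1.0, bedtools 2.16.2 and genome build mm9 were used; caller settings and the use of inputs were not stated. The deposited score is of unstated kind and was used to rank and filter peaks. The filter at the pooled median (19.2) applied the same cutoff to different lists. Scores of different lists were also set side by side for the same or nearby regions, and whether they share a scale is unknown. The series holds 18 samples, 9 ChIP and 9 inputs; the inputs were not analysed here. Starts were converted to count from 1.

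Peaks of the 8 Foxa lists were merged where they overlapped by 1 bp, which gave the same 24999 regions as bedtools 2.31.1. Counts, medians, gaps and 95% Wilson intervals were computed with Python 3.11.15, numpy 2.4.6, pandas 2.3.3 and scipy 1.17.1, and figures with matplotlib 3.10.9. No test was run. The gene table and promoters at hand are on GRCm38, so no gene is named and no sequence is printed. Regions named were, in each of the 3 groups, the 5 strongest (or best by mean rank) and the 2 widest, then the 3 largest clusters and the closest misses. The regions and these rules were chosen with earlier results of these data known. Lists were also compared after score filters, at equal length, with other overlap rules and without each list in turn.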

Additional observations from a re-analysis of the deposited data

How the results depend on the processing

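The rule for overlap mattered little: merging peaks up to 1 kb apart, requiring 50% reciprocal overlap, matching midpoints within 200 bp, or letting the 4a3_DA1 list also exclude regions kept the counts within 228 to 260 (Foxa1_CA3 alone), 997 to 1133 (Foxa3_NA1 alone) and 45 to 49 (both). The counts moved more with score filters and with the number of peaks kept per list. With peaks above the pooled median score (19.2) in all 8 lists the counts were 109, 677 and 26, and with that filter on the Foxa1-antibody lists alone 43, 298 and 8. With 956 peaks per list they were 163, 113 and 15, and with 3500 (Foxa1_NA3 956) they were 585, 517 and 67; the cause was not tested. Without each of the other lists in turn they ran from 232 to 429, from 1077 to 1475 and from 45 to 126 (without Foxa1_CA3, 1112 for Foxa3_NA1; without Foxa3_NA1, 277 for Foxa1_CA3). The share of regions with a peak of the other 6 lists within 10 kb was 29.3% and ran from 6.19 to 31.3%. Read depth is unknown, which limits what absence of a peak shows. No paired analysis was possible because each construct had 1 library and no test was run.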
